A study of Mus musculus with 4 samples.

Results

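The Fezf2 knockout retina was followed from postnatal day 7 (P7) to postnatal day 14 (P14) with 2 of the 4 RNA-seq libraries of the series, the knockout (KO) library of each age. Fezf2 encodes a zinc-finger transcription factor, and the series was made to examine its part in retinal development. The mice are labelled C57/BL/6J, the KO genotype is given as Fezf2KO, and the other 2 libraries are whole retinas of control littermates, labelled wildtype, at the same ages. The labels do not say which part of Fezf2 is missing, in which cells, or how many retinas went into a library. Each genotype and age has 1 library, so no difference was replicated and no test across samples was possible. Levels are FPKM, read counts put per unit of transcript length and per unit of sequencing depth, each with a deposited lower and upper bound that covers counting error only. A gene entered the comparison when it reached 1 FPKM at either age in KO, which 13048 of 22558 symbols did after small RNAs and loci under 300 bases were set aside. The difference between ages is the log2 of the (FPKM + 1) ratio, P14 over P7, and a gene is called higher or lower at P14 at 2-fold or more on that scale, which understates the change of low genes.

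In the mouse, the retina is close to the end of cell birth at P7, when the last rods, bipolar cells and Mueller glia leave the cell cycle, and at P14 the eyes have opened or are opening. Between these ages rods and cones build their outer segments and stock them with the proteins of phototransduction, bipolar cells form ribbon and dendritic synapses with photoreceptors, and the vessels spread through the retinal layers. Rods, by far the most numerous cells of the mouse retina, answer light through transducin, a cGMP phosphodiesterase and a cGMP-gated channel, and recover through arrestin and calcium-sensing activators of guanylate cyclase.

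Fezf2 itself stood at 0.592 FPKM at P7 and 0.126 at P14 in KO, against 8.32 and 4.02 in control. Its locus is chr14:13174406-13178379 in mm9, the build of the deposited values. The KO level lay below the control level at both ages, with KO bounds of 0.378 to 0.792 at P7 and 0.0494 to 0.214 at P14.

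In KO, 1009 genes were higher at P14 (7.73% of those compared) and 1029 were lower (7.89%). The deposited bounds of the ages did not overlap for 999 and 1028 of them. Bounds alone parted far more genes, 3788 higher (29.0%) and 5138 lower (39.4%), so the fold and not the counting error limited the calls. The near-even split depends on the scale: higher genes made up 49.5% of the calls in FPKM and 40.0% after rescaling each library to a fixed total (TPM). They made up 60.8% on the median scale, where P14 was divided by the median ratio of P14 to P7 over genes at 5 FPKM or more at both ages. The median difference over all genes was -0.09 log2, and the median scaling moved it to 0.03. Most genes moved little, with 7951 (60.9%) under 1.5-fold.

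Large changes were more often upward. At 4-fold or more, 166 genes were higher and 84 lower, at 8-fold 32 and 13, and at 16-fold 13 and 1. The higher genes had a median KO level of 4.10 FPKM at P7 and 14.4 at P14, while the lower genes went from 16.8 to 6.03. The higher genes lay in compact loci, with a median span of 14.5 kb against 21.9 kb over all genes compared, and the lower genes in long ones, with a median of 34.3 kb. At the threshold, Neil2 was just inside the higher calls and Sntb2 just outside, both at 1.0 log2 after rounding, and Zfp408 and Prr12 stood on either side of the lower one at -1.0. Among the called genes, 35 passed from under 1 FPKM to 5 or more, and 24 went the other way. In the plot of levels at both ages, Guca1b, Kcnj14 and Gnat1 stand farthest above the diagonal.

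**Figure D1:**
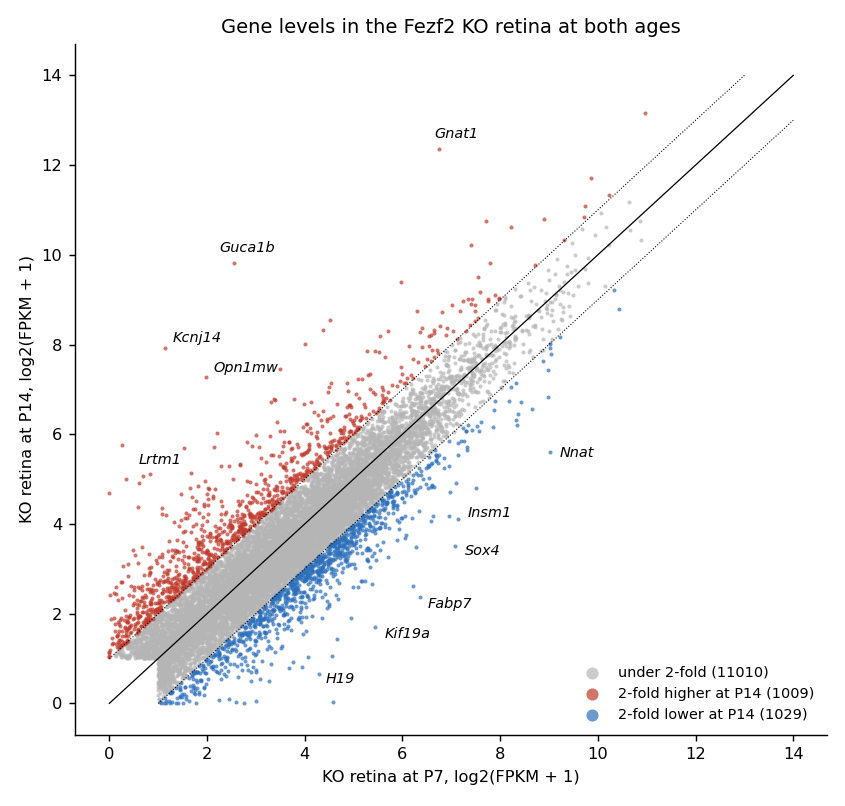
Each point is 1 of the 13048 genes compared, at its log2(FPKM + 1) in the KO retina at P7 (horizontal) and at P14 (vertical), with the solid line at equal levels and the dotted lines at 2-fold. Red marks the 1009 genes higher at P14 and blue the 1029 lower, and Guca1b, Kcnj14 and Gnat1 lie farthest above the line.

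The counts of each list below stand beside the shares over all genes compared, 7.73% higher and 7.89% lower. All 22 members of the rod phototransduction list were measured, 16 were higher at P14 and none was lower, with a median of 1.73 log2 in KO and 1.53 in control. Member by member, the KO change minus the control change had a median of 0.09, with 8 members below control and 14 above. Summed over the list, KO went from 8377 to 30881 FPKM. That was 2.35% and 8.02% of the FPKM in the library outside small RNAs and loci under 300 bases. In whole-retina RNA, more cells of a type and more RNA per cell cannot be told apart.

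Guca1b, a calcium-sensing activator of retinal guanylate cyclase (chr17:47522342-47529916, mm9), went from 4.90 to 899 FPKM in KO, a difference of 7.25 log2, and from 7.09 to 820 in control. Gnat1, the alpha subunit of rod transducin (chr9:107576805-107581923, mm9), went from 107 to 5236 FPKM, a difference of 5.60, and from 130 to 4979 in control. For such strongly covered genes the deposited FPKM can lie outside its own bounds, as for Gnat1 at P14 with bounds of 4741 to 4787, and bounds were compared only with bounds.

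Other rod genes differed in how far along they were at P7. Guca1a, the other guanylate cyclase activator of the list, went from 61.7 to 667 FPKM (3.41 log2). Slc24a1, the rod exchanger that removes calcium, went from 15.1 to 256 (4.0), and Rcvrn, recoverin, from 207 to 1730 (3.06). These 3 genes held little of their P14 level at P7, in KO as in control. Pdc, phosducin, stood at 1593 and 2329 FPKM (0.55), Gnb1, the transducin beta subunit, at 1146 and 1572 (0.46), and Cngb1, a channel subunit, at 211 and 348 (0.72). None of these 3 reached 2-fold, and their bounds at the 2 ages were apart.

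Some of the genes with large gains have promoters that carry the letters TAATCC, a sequence bound by homeodomain factors of the Otx and Crx type. RefSeq promoters (build GRCm38.p6) were read over the 250 bases before the start site, on both strands, and TAATCC was found in 6.25% of all 32841 promoters, 5.29% of those of the genes compared, 8.32% of those of the higher genes and 5.72% of those of the lower genes. Of the rod list, 13 genes had a promoter in the table and 7 of these held it. The choice of promoters to print did not cover every chromosome, and Pde6a, a rod gene with a gain of 2.64 log2, was not considered. In those printed, the match is in capitals on either strand (TAATCC or its reverse complement GGATTA). Of the ranked, rod and cone genes that were considered and held it, the 3 with the largest gains are printed 5′ to 3′ along the gene. They are Lrtm1 at chr14:29017958-29018207 on the plus strand, Guca1a at chr17:47400607-47400856 on the minus strand and Gucy2f at chrX:142196937-142197186 on the minus strand.
Lrtm1: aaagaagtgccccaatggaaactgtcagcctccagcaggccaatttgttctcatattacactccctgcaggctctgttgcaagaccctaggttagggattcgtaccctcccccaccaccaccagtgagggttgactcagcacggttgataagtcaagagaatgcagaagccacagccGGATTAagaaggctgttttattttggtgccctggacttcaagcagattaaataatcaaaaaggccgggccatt
Guca1a: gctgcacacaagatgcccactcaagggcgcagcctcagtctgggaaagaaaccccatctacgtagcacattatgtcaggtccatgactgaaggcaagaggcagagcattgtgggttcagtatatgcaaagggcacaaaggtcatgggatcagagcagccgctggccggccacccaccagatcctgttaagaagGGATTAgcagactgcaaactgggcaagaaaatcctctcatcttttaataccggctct
Gucy2f: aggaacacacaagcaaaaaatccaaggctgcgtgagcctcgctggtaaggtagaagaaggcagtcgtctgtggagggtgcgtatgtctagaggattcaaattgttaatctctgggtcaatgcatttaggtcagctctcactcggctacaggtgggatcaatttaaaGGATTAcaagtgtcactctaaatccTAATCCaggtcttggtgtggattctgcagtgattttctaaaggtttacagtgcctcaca
The match nearest the start begins 73 bases before it in Lrtm1, 57 in Guca1a and 59 in Gucy2f, which has 2 matches. A match describes the letters and does not show that a factor was bound. Gucy2f, a guanylate cyclase of photoreceptors, went from 2.44 to 14.9 FPKM in KO (2.21 log2).

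Cone genes changed in the same direction, less evenly. Of 11 cone phototransduction genes, 6 were higher and 1 lower, with a median of 1.05 log2. Opn1mw, the middle-wavelength opsin (chrX:71372805-71396094, mm9), went from 2.93 to 155 FPKM (5.31 log2), and from 3.70 to 149 in control. Opn1sw, the short-wavelength opsin, was already at 72.9 FPKM at P7 and reached 202 (1.46). Gnat2, the cone transducin alpha subunit, went from 28.2 to 97.1 (1.75). Gnb3, the beta subunit that cones share with ON bipolar cells, was lower at P14, at 297 and 132 FPKM (-1.17).

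Structural and regulatory photoreceptor genes moved less. Of 22 outer segment and cilium genes, 8 were higher and none lower, with a median of 0.32 log2. Fscn2, the photoreceptor fascin, went from 7.06 to 61.9 FPKM (2.96), and the retinol dehydrogenases Rdh12 and Rdh8 from 83.7 to 332 (1.97) and from 21.7 to 81.8 (1.87). Cilium genes such as Rpgr (5.16 and 3.40 FPKM, -0.48) and Spata7 (12.6 and 8.24, -0.56) stood on the other side of 0 without reaching 2-fold. The factors that specify photoreceptors went the other way on balance: 4 of 16 were lower and 2 higher, with a median of -0.71. Prdm1, which holds back bipolar fate, went from 20.8 to 3.38 FPKM (-2.32) and Otx2 from 289 to 105 (-1.44). Crx (540 and 369 FPKM, -0.55) and the rod factor Nrl (710 and 1231, 0.79) did not reach 2-fold, while Esrrb, a nuclear receptor of rods, went from 28.9 to 100 (1.76).

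The bipolar cell lists differed in direction. The list of the ON cascade and rod bipolar cells had 12 of 21 members higher and 1 lower, in KO as in control. The median was 1.45 log2 in KO and 1.07 in control. Member by member the genotypes hardly differed: the KO change minus the control change had a median of 0.00, with 10 members below control and 11 above. Gng13, a G protein gamma subunit, went from 19.8 to 322 FPKM (3.96), and Nyx, nyctalopin, from 1.54 to 9.63 (2.07). Trpm1, the transduction channel, went from 8.73 to 32.8 (1.79), while its receptor Grm6 was at 16.4 and 23.4 (0.49) and fell short of 2-fold. Lrtm1 went from 0.618 to 32.8 FPKM (4.38) in KO and from 1.98 to 39.5 in control.

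The OFF cone bipolar list had 7 of 17 members lower and 1 higher in KO, with a median of -0.74 log2, and 5 lower and 2 higher in control, with a median of -0.33. The KO change lay below the control change in 15 of the 17, against 49.1% of all 13044 genes that could be compared. That difference between genotypes was not tested, since it rests on 1 library per point. The list was also chosen with earlier results of these data known, so the count only describes these members. Grik1, a kainate receptor subunit of OFF bipolar cells, was at 10.9 and 14.6 FPKM in KO (0.39), and at 13.4 and 27.8 in control. Neto1, whose protein joins kainate receptors as a helper subunit, was at 7.78 and 3.97 in KO (-0.82) and at 4.01 and 4.80 in control. Nxph1, a neurexin ligand, went from 11.6 to 4.58 in KO (-1.18) and stood at 7.73 and 7.09 in control. Neto1 and Nxph1 were therefore above control at P7 and below it at P14, with Grik1 below control at both ages. The deposited bounds of the genotypes were apart in each case except Neto1 at P14, at 3.42 to 4.45 in KO and 4.10 to 5.32 in control. Members that fell in both genotypes included Lhx3, a LIM homeodomain factor, at 20.4 and 4.38 FPKM in KO (-1.99) and at 16.1 and 5.16 in control. Vsx1, a homeodomain factor of cone bipolar cells, was at 45.5 and 14.3 in KO (-1.61) and at 33.3 and 15.1 in control. A larger fall in KO can thus come from a higher level at P7 as well as from a lower level at P14. The ON cone bipolar list was mixed, with 2 of 11 tested members higher and 3 lower, and its median of -0.02 log2 became 0.14 on the TPM scale. Cck, the precursor of cholecystokinin, went from 0.515 to 29.2 FPKM (4.32).

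Inner neurons changed by gene more than by class. Of all genes compared, 7.73% were higher and 7.89% lower. Horizontal cell genes had 4 of 12 lower and 2 higher: the factors Lhx1 (7.54 and 2.41 FPKM, -1.32) and Onecut1 (6.40 and 1.72, -1.44) were lower, and the calcium buffer Calb1 was higher, at 10.5 and 47.4 (2.07). Amacrine genes had 6 of 22 higher and 2 lower, the latter near the share over all genes. Vip, a peptide transmitter, went from 0.595 to 10.2 FPKM (2.81), and Chat, which makes acetylcholine, from 1.03 to 5.49 (1.67), while Npy went from 125 to 25.2 (-2.26). Ganglion cell genes had 6 of 20 higher and 1 lower. Nefh, the heavy neurofilament, went from 19.6 to 72.2 FPKM (1.83), while Gap43, a growth cone protein, was lower at P14, at 43.3 (-1.37). Rbpms, a ganglion cell marker, was at 21.5 and 25.4 (0.23).

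Mueller glia are the radial glia of the retina. Of 22 members of their list, 7 were higher and 1 lower, against 7.73% and 7.89% of all genes compared, with a median of 0.60 log2. Glul, which turns glutamate into glutamine, went from 169 to 1190 FPKM (2.80), the water channel gene Aqp4 from 1.78 to 24.3 (3.18) and the potassium channel gene Kcnj10 from 5.32 to 20.4 (1.76). Slc1a3, the glutamate transporter of these cells, was at 72.8 and 55.1 (-0.40), and Rlbp1 at 186 and 303 (0.70). Crym, a thyroid hormone binding protein, went from 323 to 73.2 (-2.13).

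**Figure D2:**
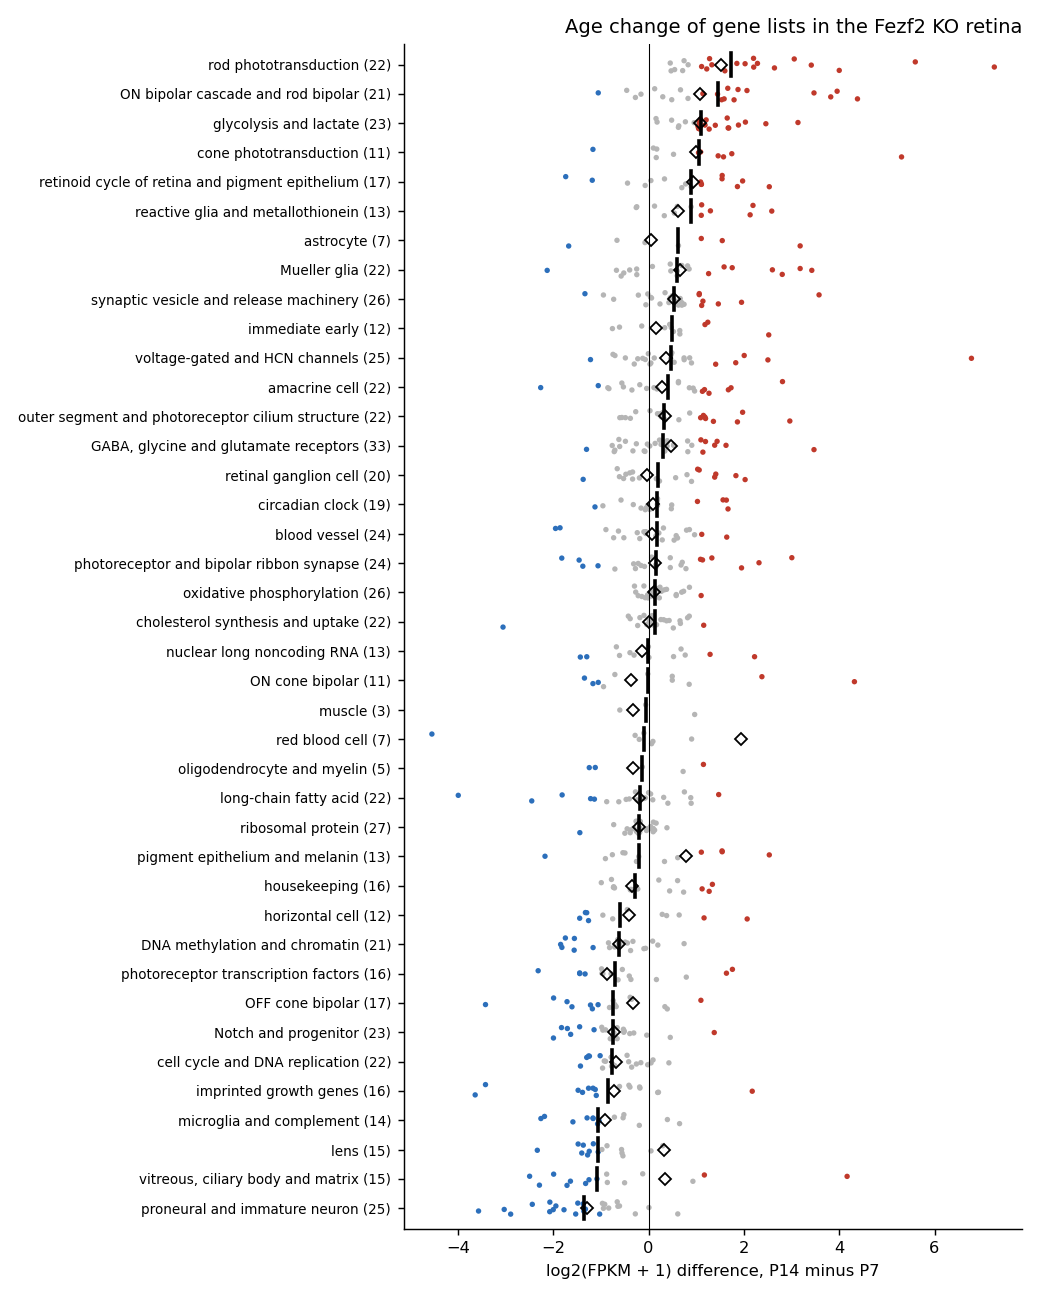
Each row is a gene list with its number of tested members in parentheses, and each point is 1 member at its KO log2(FPKM + 1) difference, P14 minus P7, red at 2-fold higher, blue at 2-fold lower and grey between. The black bar is the KO median and the open diamond the control median of the same members; the diamonds of the lens, vitreous, red blood cell and pigment epithelium lists lie far to the right of the bars.

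Genes of dividing and newborn cells were lower. Of 34 cell cycle genes, 22 reached 1 FPKM, 5 were lower and none higher, with a median of -0.77 log2 where all genes had -0.09. Members that entered did so mostly through P7, so that a fall was the only direction open to the lowest ones. Mcm7, a replicative helicase subunit, went from 17.4 to 5.82 FPKM (-1.43), Mcm6 from 5.09 to 1.48 (-1.30), and Cdc20, an activator of the anaphase complex, from 2.14 to 0.312 (-1.26). Mki67, a proliferation marker, was at 0.935 and listed at 0. Pcna, the replication clamp, stood at 44.9 and 60.7 (0.43).

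The letters CCAAT, read by NF-Y, occur in 15 of the 18 promoters that the table holds for these cell cycle genes, in 33.9% of all promoters and in 35.3% of those of the genes compared. This motif was singled out after the counts of all 4 motifs searched were seen. The 3 cell cycle genes with the largest falls that held it are printed with the match in capitals (CCAAT or its reverse complement ATTGG). They are Mcm7 at chr5:138171884-138172133, Mcm6 at chr1:128359706-128359955 and Cdc20 at chr4:118437344-118437593, all in GRCm38.p6 and on the minus strand.
Mcm7: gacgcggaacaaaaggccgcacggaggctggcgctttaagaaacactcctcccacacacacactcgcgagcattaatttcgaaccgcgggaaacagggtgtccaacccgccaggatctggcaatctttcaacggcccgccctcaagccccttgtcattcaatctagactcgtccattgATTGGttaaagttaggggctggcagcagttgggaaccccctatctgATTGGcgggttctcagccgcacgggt
Mcm6: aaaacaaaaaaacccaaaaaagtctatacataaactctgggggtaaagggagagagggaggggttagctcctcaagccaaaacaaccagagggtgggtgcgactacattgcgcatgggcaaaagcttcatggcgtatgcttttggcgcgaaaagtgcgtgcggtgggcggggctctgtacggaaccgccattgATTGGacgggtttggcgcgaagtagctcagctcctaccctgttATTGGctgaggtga
Cdc20: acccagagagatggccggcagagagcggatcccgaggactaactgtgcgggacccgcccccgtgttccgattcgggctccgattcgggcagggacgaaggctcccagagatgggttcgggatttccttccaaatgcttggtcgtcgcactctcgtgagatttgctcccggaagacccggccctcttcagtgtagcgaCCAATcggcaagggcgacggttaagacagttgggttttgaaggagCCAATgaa
Each promoter has 2 matches, in the same orientation within a promoter, at 72 and 26 bases before the start in Mcm7, 57 and 14 in Mcm6, and 53 and 8 in Cdc20. The other motifs searched were TGCTGA, the core of a Maf site, present in 16.1% of all promoters and 3 of the 13 rod promoters, and TTTNNCGC, of the E2F type, present in 4.28% of all and 3 of the 18 cell cycle promoters. All 4 were searched on both strands and counted separately, and matches may overlap, since TAATCC ends in letters with which CCAAT begins.

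Of 25 tested proneural and immature neuron genes, 15 were lower and none higher, with a median of -1.36 log2 in KO and -1.29 in control. Sox4, a factor of postmitotic immature neurons (chr13:29042599-29045551, mm9), went from 134 to 10.4 FPKM (-3.57). Insm1, a zinc-finger factor of newborn neurons, went from 139 to 16.2 (-3.03), and Dcx, the microtubule protein of migrating neurons, from 11.7 to 0.715 (-2.89). The Notch and progenitor list had 6 of 23 lower and 1 higher: Notch1, a receptor, went from 13.8 to 2.71 (-1.99), Dll1, a ligand, from 8.19 to 1.96 (-1.63), and Jag1, another ligand, from 4.30 to 12.8 (1.38).

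Lower genes also outnumbered higher ones among imprinted genes (8 of 16 lower, 1 higher) and chromatin genes (6 of 21 lower, none higher). H19, an imprinted noncoding RNA (chr7:149761437-149764051, mm9), went from 18.5 to 0.566 FPKM (-3.64), Nnat, neuronatin, from 518 to 47.5 (-3.42), and Igf2, a growth factor, from 39.6 to 14.5 (-1.38). The exception was Impact, a regulator of translation control, at 10.8 and 52.5 (2.18). Tet3, which oxidises methylcytosine, went from 61.6 to 16.4 (-1.84), and Hmgn2, a nucleosome binding protein, from 507 to 171 (-1.56). Fabp7, a fatty acid binding protein of progenitors and young glia (chr10:57504729-57508256, mm9), had the largest fall among genes at a single locus with bounds apart, from 81.7 to 4.2 FPKM (-3.99), against 76.8 and 2.56 in control.

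Energy genes divided by pathway. Of 23 glycolysis and lactate genes, 16 were higher and none lower, with a median of 1.09 log2. Hk2, the hexokinase of photoreceptors, went from 2.15 to 26.7 FPKM (3.13), Aldoc, an aldolase, from 77.4 to 431 (2.46), and Slc16a1, a lactate transporter, from 16.2 to 69.3 (2.03). Ldha, lactate dehydrogenase A, was at 697 and 790 (0.18). Of 26 oxidative phosphorylation genes, only Ckmt1, the mitochondrial creatine kinase kept in that list, reached 2-fold, from 47.8 to 104 (1.10), and the list median was 0.13. In the fatty acid list, 5 of 22 were lower and 1 higher, among them Elovl2, an elongase of very long polyunsaturated chains, at 97.3 and 17.0 (-2.45), and Fasn, fatty acid synthase, at 51.8 and 14.0 (-1.81).

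Synapse and channel genes shifted by member, where 7.73% of all genes compared were higher and 7.89% lower. Vamp1, a vesicle SNARE, went from 3.41 to 51.7 FPKM (3.58), and Slc17a7, the vesicular glutamate transporter of photoreceptors and bipolar cells, from 187 to 725 (1.95). Complexins split, with Cplx1 at 47.2 and 132 (1.46) and Cplx2 at 233 and 91.8 (-1.33). Ribbon synapse genes had 6 of 24 higher and 4 lower. Cabp4, a calcium-sensing partner of the photoreceptor calcium channel, went from 12.7 to 109 (3.01), while Nrxn3, a neurexin, went from 38.1 to 10.1 (-1.82). Transmitter receptor genes had 7 of 33 higher and 1 lower: Gabrr2, a GABA receptor subunit, went from 2.19 to 34.4 (3.47), and Slc12a2, a chloride importer, from 12.9 to 4.64 (-1.30). Slc12a5, the chloride exporter, was at 50.7 and 96.0 (0.91). Among 25 channel genes, 5 were higher and 1 lower, and Kcnj14, an inward rectifier of potassium (chr7:53071837-53080117, mm9), went from 1.21 to 241 FPKM in KO (6.77) and from 2.64 to 227 in control.

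The control retina changed in much the same way over these ages, and the 2 age comparisons share no library. Over 13044 genes, the Pearson correlation of the log2 differences was 0.935 and the Spearman correlation 0.933, given as descriptions across genes, which are not independent replicates. In control 914 genes were higher (7.01%) and 900 lower (6.90%). Of the KO calls, 756 of the higher (74.9%, or 82.7% of those in control) and 752 of the lower (73.1%, or 83.6%) were called in control too. Genes called in KO alone were near the threshold in both genotypes, with median changes of 1.11 in KO and 0.83 in control for the higher and -1.10 and -0.87 for the lower. In 65 genes the changes lay more than 1 log2 unit apart, a count that was 186 with a pseudocount of 0.1 FPKM and 34 with a floor of 5 FPKM.

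**Figure D3:**
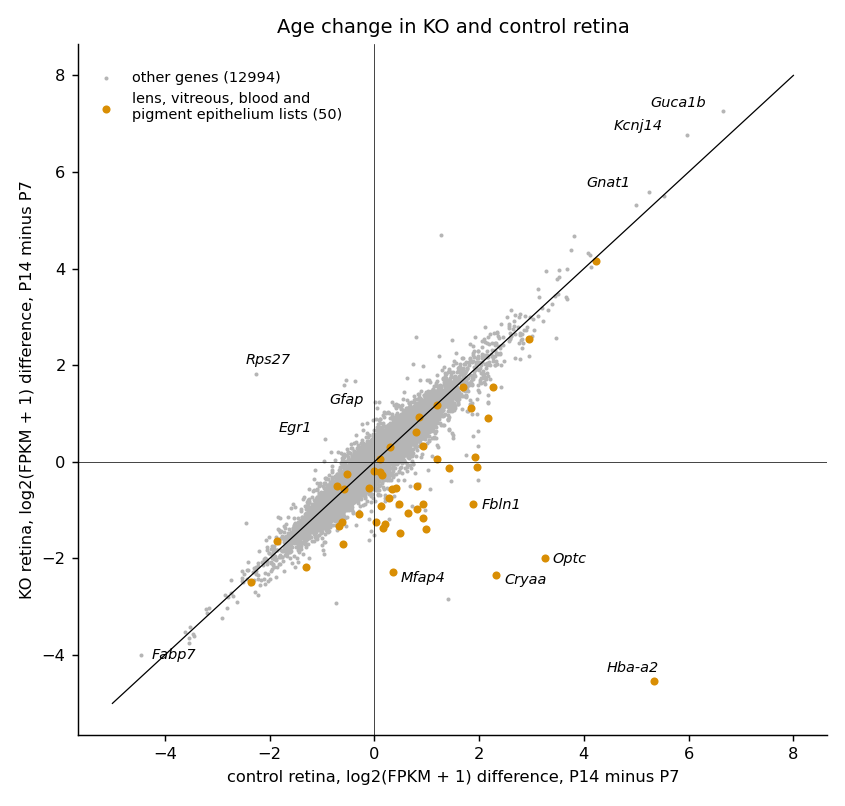
Each point is 1 of 13044 genes, at its log2(FPKM + 1) difference, P14 minus P7, in control (horizontal) and in KO (vertical), with the line at equal change. Genes of the lens, vitreous, red blood cell and pigment epithelium lists are orange, and Optc, Cryaa and Hba-a2 lie in the quadrant of a fall in KO and a gain in control.

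Some of the changes that parted from control were in genes of tissues next to the retina. With the members of the lens, vitreous, red blood cell, pigment epithelium and muscle lists left out, 41 of the 65 genes remained. Optc, opticin of the vitreous (chr1:135793771-135804576, mm9), went from 19.5 to 4.17 FPKM in KO (-1.99) and from 3.22 to 39.1 in control. Cryaa, the lens alpha-A crystallin, went from 4.43 to 0.0779 in KO (-2.33) and from 0.122 to 4.63 in control. In the lens list, 8 of 15 tested members were lower in KO and none higher. The sum over the tested members was 60.9 and 48.3 FPKM in KO and 39.3 and 55.8 in control. Sums of this and the following lists cover members at 1 FPKM or more in either KO library, so members reaching it only in control are left out. Cryba1, Cryba2, Crygd, Cryge, Crygf and Crygs were listed at 0 in KO at P14, and the close copies among the gamma crystallins cannot be told apart with certainty by short reads. The vitreous and ciliary body list had 8 of 15 lower and 2 higher in KO, with sums of 177 and 122 FPKM in KO and 140 and 184 in control. Red blood cell genes summed to 419 and 424 FPKM in KO and 363 and 1255 in control, and the globin copies Hba-a1 and Hba-a2 are near-identical. The pigment epithelium list summed to 133 and 169 FPKM in KO and 113 and 231 in control, with 4 of 13 higher and 1 lower in KO. Whether adhering tissue plays a part in these genes was not tested; without any member of these 4 lists and of the muscle list, 1003 genes were higher and 1011 lower in KO.

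Activity and stress genes parted from control in the other direction. The KO change exceeded the control change in 11 of 12 immediate early genes and in 11 of 13 genes of reactive glia and metallothioneins, against 50.9% of all genes compared. Member by member, the KO change minus the control change had a median of 0.48 and 0.50 log2. Such counts also arose from small shifts, with 20 of 23 glycolysis genes (median 0.06) and 19 of 26 oxidative phosphorylation genes (0.05) above control. None of these differences was tested, and these lists too were chosen with earlier results of these data known. Fos, an activity-induced factor, went from 2.81 to 20.9 FPKM in KO (2.52) and from 2.94 to 9.94 in control. Egr1, another such factor, was at 13.3 and 18.9 in KO (0.48) and at 10.8 and 5.15 in control. Gfap, the intermediate filament of astrocytes and stressed Mueller glia, went from 9.02 to 20.6 in KO (1.11) and stood at 9.03 and 9.32 in control, so 1 of the 4 libraries, KO at P14, stood apart. Mt1, a metallothionein, went from 37.7 to 232 in KO (2.59) and from 36.5 to 141 in control. How the retinas were dissected and handled is not given in the sources used here, and its part was not tested.

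**Figure D4:**
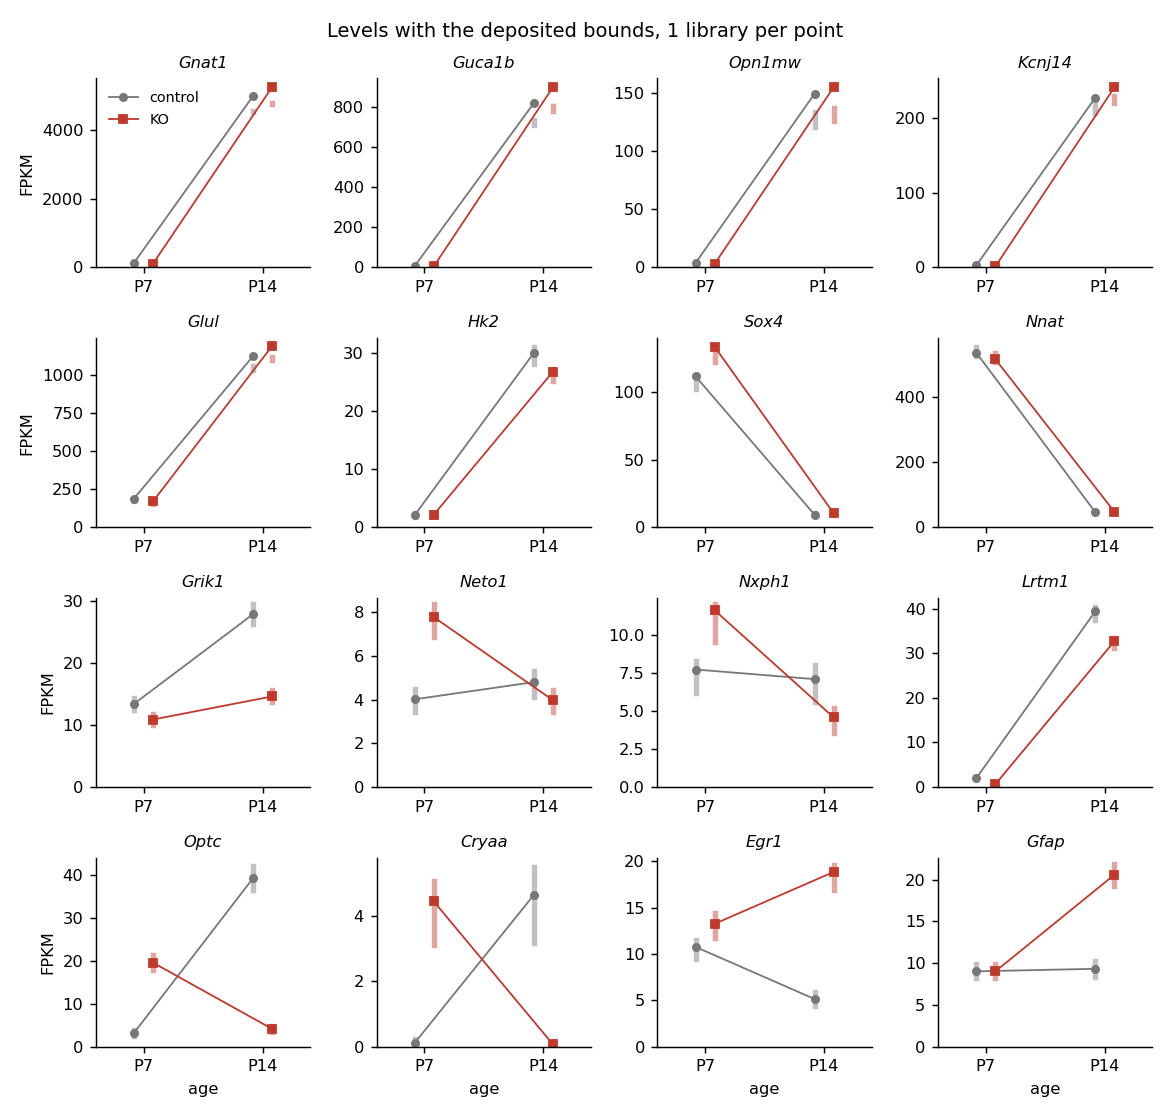
Each panel is a gene, with FPKM on a linear axis from 0 at P7 and P14, the KO library as red squares, the control library as grey circles and the deposited bounds as thick bars, which the FPKM can exceed. Phototransduction, Mueller glia, glycolysis and immaturity genes follow the same course in both genotypes, while Neto1, Nxph1, Optc and Cryaa cross and Gfap separates at P14.

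Microglia and vessel genes bear on the makeup of the samples. In KO, 8 of 14 tested microglia and complement genes were lower and none higher, with a median of -1.05 log2 against -0.91 in control. C1qa, a complement subunit, went from 16.7 to 6.89 FPKM (-1.16) and Lyz2, a lysozyme, from 6.96 to 0.665 (-2.26). Of 24 vessel genes, 2 were higher and 2 lower, close to the shares over all genes compared (7.73% and 7.89%). Kdr, a VEGF receptor also made by retinal neurons, went from 62.5 to 16.5 (-1.86). Angpt2, an angiopoietin of sprouting vessels, went from 11.7 to 2.29 (-1.95), while Pecam1, a marker of endothelium, was at 4.94 and 4.72 (-0.06). Xist, which is made in female cells, was at 15.6 FPKM at both ages in KO and the Y-linked Ddx3y at 0.360 and 0.158.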

How the data were processed

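Whole-retina RNA was read as short single ends, and the labels' protocols name random primers and no strand marking or polyadenylation step, so overlapping and antisense genes cannot be told apart. The submitters' processing notes name CASAVA 1.8.2, the aligner TopHat2 2.0.8b, Cufflinks 2.1.1 and the build mm9 for the FPKM values that the authors deposited. Options and annotation are not given in the sources used. Every library lists 23021 loci. The files hold no counts, so depth is unknown; in KO the bounds lay a median of 14.4% (P7) and 12.8% (P14) of the level to each side at 1 to 10 FPKM and 6.11% and 6.13% above 10. At 2080 and 2243 KO loci the FPKM was above its upper bound.

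Rows of the 251 symbols at several loci were summed, 739 small RNA genes and short loci were left out, and 12 symbols with a failed estimate in a KO library (among them Stat3 and Smarca4, listed at 0) were not compared. Log2 differences used a pseudocount of 1 FPKM, a floor of 1 FPKM and a 2-fold threshold, in Python 3.11.15 with pandas 2.3.3, and the calling rule was tested on simulated data. Named were Fezf2, the 15 highest and 15 lowest genes, up to 6 per list and 10 per direction against control; the ranked genes had at least 2 FPKM and bounds apart, and the ranks hold no sex-linked gene and no symbol found at several loci (such as Hba-a2 and Bc1). Where another list member was named it was chosen after its values were seen, as was each member shown for not reaching 2-fold. The members and the 41 lists were chosen with earlier results of these data known. In the rod list Gucy2d was replaced by Gucy2e, the photoreceptor cyclase, and a mistyped symbol was dropped from the factors after the values were seen. Promoters are from RefSeq (GRCm38.p6), matched by symbol for 10251 of the 13048 genes. A few list members are not reported here.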

Additional observations from a re-analysis of the deposited data

Results flagged for a closer look

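These results stood out because the age change in KO and in control went in opposite directions past 2-fold, or because the KO and control medians of a list had opposite signs and lay more than 0.5 log2 apart. None of these differences was tested, since each genotype and age has 1 library, and the 0.5 limit was set after the list medians were seen. The KO change minus the control change, in log2, was -4.659 for Cryaa, -9.876 for Hba-a2, -4.243 for Hist2h2aa2, -5.24 for Optc and 4.075 for Rps27. Hist2h2aa2, a histone gene with a near-identical copy, was at 12.5 and 0.882 FPKM in KO and at 0.00206 and 1.65 in control. Rps27, a ribosomal protein gene with many processed copies, was at 6.06 and 23.9 FPKM in KO and at 26.8 and 4.82 in control, and Hba-a2 at 22.8 and 0.0186 in KO and at 0.0201 and 40.1 in control, so reads of these 3 may be shared with copies. The list medians, over members at 1 FPKM or more in either KO library, differed by -0.9914 for pigment epithelium and melanin and -1.391 for lens. They differed by -1.438 for vitreous, ciliary body and matrix, and by -2.029 for red blood cell. The astrocyte medians were as far apart without a change of sign, at 0.63 in KO and 0.04 in control over 7 genes. Member by member this list hardly differed. The KO change minus the control change had a median of -0.01, with 4 genes below control and 3 above. With no floor the KO median was 0.06.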

How the results depend on the processing

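No paired analysis was possible because each group has 1 library, and for the same reason no library could be left out. With each library rescaled to a fixed total (TPM) the lower genes numbered 1812 and not 1029. The median difference over all genes went from -0.09 to -0.18 log2. The values are larger on that scale, so a pseudocount of 1 weighs less, and the library totals are set equal. The part of each was not tested. The higher genes stayed within 790 (floor of 5 FPKM) and 1428 (pseudocount of 0.1) under every alternative, and the lower genes within 810 (median scale) and 1514 (pseudocount of 0.1) under the others. The median of the ON cone bipolar list turned from -0.02 to 0.23 log2 with no floor and 0.14 in TPM. That of pigment epithelium turned from -0.20 to 0.33 with a floor of 5 FPKM, and that of nuclear long noncoding RNA from 0.00 to 0.11 on the median scale. Other medians moved without changing sign, such as amacrine from 0.40 to 0.05 and OFF cone bipolar from -0.74 to -1.01 in TPM. With no floor, imprinted genes went from -0.85 to -0.45 and microglia from -1.05 to -0.53. The cell cycle median went from -0.77 to -1.24 with a floor of 5 FPKM. The causes of these moves were not tested. The Pearson correlation with control ran from 0.909 (pseudocount of 0.1) to 0.949 (neighbouring-tissue lists left out, an alternative chosen after seeing the data). Single genes called 2-fold kept their direction under the pseudocount and scale alternatives, while 4 list members near 0 changed sign: Xist (-0.00 to 0.11), Hbb-b2 (-0.10 to 0.02) and Actc1 (-0.06 to 0.02) on the median scale and Hba-a1 (0.09 to -0.02) in TPM.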

Other observations

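Clock genes gave 4 of 19 higher and 1 lower in KO, against 7.73% and 7.89% of all genes compared. Dbp, an output factor of the circadian clock, went from 39.3 to 127 FPKM (1.67 log2), Hlf, a factor of the same family, from 14.9 to 45.8 (1.56) and Per3 from 3.30 to 7.75 (1.03), while Arntl, the core activator, went from 51.2 to 23.0 (-1.12). The time of day at collection is not given in the sources used here. Control values lay close by, with Dbp at 36.6 and 123 FPKM and Arntl at 46.6 and 23.5.

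The 27 listed ribosomal protein genes were nearly level, with 1 lower, none higher and a median of -0.19 log2. Rps27, at 1.82 log2 in KO, was not among them. The median of 16 housekeeping genes was -0.28. Among the genes that passed from under 1 to at least 5 FPKM were Pvalb, the calcium buffer parvalbumin, at 0.782 and 33.6, and Tac2, a tachykinin precursor, at 0.260 and 31.1. Among those that went the other way were Pnoc, the nociceptin precursor, at 7.43 and 0.466, and Cyp26a1, which degrades retinoic acid, at 6.17 and 0.672. Of 147 small RNA genes and short loci, 49 were 2-fold higher and 56 lower, but the bounds were apart for 4.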
